A study of Mus musculus with 2 samples.

Results

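The heat shock proteins and chaperonins of the mouse hippocampus were followed as a set of 82 genes, out of 55536 annotated genes of which 21901 have a protein-coding transcript. A gene was taken when its symbol began with Hsp90, Hspa, Hspb, Hspd1, Hspe1 or Hsph1, with Dnaja, Dnajb or Dnajc and a digit, or with Cct and a digit, and when it had at least 1 protein-coding transcript. The naming rule uses no measured value, although the set was proposed with earlier results of these data known. The name rule also took Hspbp1 and Hspbap1, which are binding partners of heat shock proteins. It left out Tcp1, a subunit of the CCT ring, because of its name. A further 16 symbols match by name but have no protein-coding transcript in the annotation used, 15 of them processed pseudogenes and the other Cct6a.

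Polyadenylated RNA was sequenced in 2 libraries, which the labels number as biological replicates 1 and 2 and which form 1 group. Both came from adult mice at 6 months of age, with the tissue type given as layer of hippocampus. The mice are given as C57BL/6 males in the description and as strain B6NCrl in the source name, with the sex field not collected. No genotype, allele, treatment or other condition is given, so constitutive and inducible members could be compared in this 1 condition only. The libraries carry separate tissue sample identifiers and 1 shared donor identifier, and the labels do not say whether they came from separate animals. Each library was made from 20 ng of RNA with Nextera tagmentation. With 1 group there is no comparison of conditions, no p-value is given, and every SD is over n = 2 libraries.

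Molecular chaperones bind unfolded or newly made proteins and help them fold, assemble, cross membranes or reach degradation. HSP70 proteins clamp onto exposed hydrophobic stretches in a cycle of ATP hydrolysis, J-domain proteins (the Dnaja, Dnajb and Dnajc genes) start that hydrolysis and choose the client, and HSP90 dimers finish the folding of kinases and hormone receptors. Chaperonins are closed barrels in which a protein folds in isolation: Hspd1 with its lid Hspe1 in mitochondria, and the CCT ring, the folding machine for actin and tubulin, in the cytosol. Many families hold a constitutive member made at all times and an inducible member that heat shock factor 1 switches on. In neurons the Hspa8 protein also strips clathrin from synaptic vesicles, together with the J-protein auxilin.

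The libraries held 38921662 and 39499350 expected counts in annotated genes in replicates 1 and 2. Markers of neurons, oligodendrocytes, astrocytes and microglia were present in both: all 5 of each list were at or above 1 TPM, a level scaled for transcript length and for the library total. Replicate 1 stood apart in choroid plexus genes. All 7 of these markers were past 2-fold higher there, with a summed level of 16073 TPM against 226 TPM, a median log2 ratio of 4.44, and no marker at 0 in either library. Of the ependymal markers 5 of 5 with enough reads were higher in replicate 1 (median log2 ratio 0.47, summed level 145 against 96.7 TPM), while 5 of 5 neuron markers were lower (median -0.24, 3335 against 3939 TPM). In bulk tissue, fewer cells of a type and less RNA per cell cannot be told apart.

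Chaperone genes were broadly transcribed in this tissue. Of the 82 members, 71 (86.6%) reached 1 TPM in both libraries, beside 56.9% of the 21901 coding genes. At 100 TPM the counts were 19 of 82 (23.2%) beside 6.06%. The 71 expressed members had a median level of 31.1 TPM, beside 13.2 TPM for the 12459 coding genes at the same minimum. Together the set took 1.14% of all TPM in replicate 1 and 1.18% in replicate 2, a mean of 1.16% ± 0.0236 (SD, n = 2). In expected counts, which are not scaled for length, it took 1.5% and 1.52%.

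The set was very uneven. Hspa8 and Hsp90ab1 alone held 51.6% and 54.2% of the members' TPM in replicates 1 and 2, and the 10 highest members held 75.1% and 76.4%. By mean TPM Hspa8 stood at rank 22 of all coding genes, Hsp90ab1 at rank 29 and Hsp90aa1 at rank 229. At the other end, 9 members had fewer than 10 reads in both libraries and 3 of those (Dnajb7, Dnajb8 and Dnajc5g) had none by the first program. The second program gave Dnajb7 2 reads in replicate 2. A count of 0 allows a share of up to 7.71e-06% of the reads in replicate 1 and 7.6e-06% in replicate 2, the share that 3 reads would have, which covers counting error only.

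**Figure D1:**
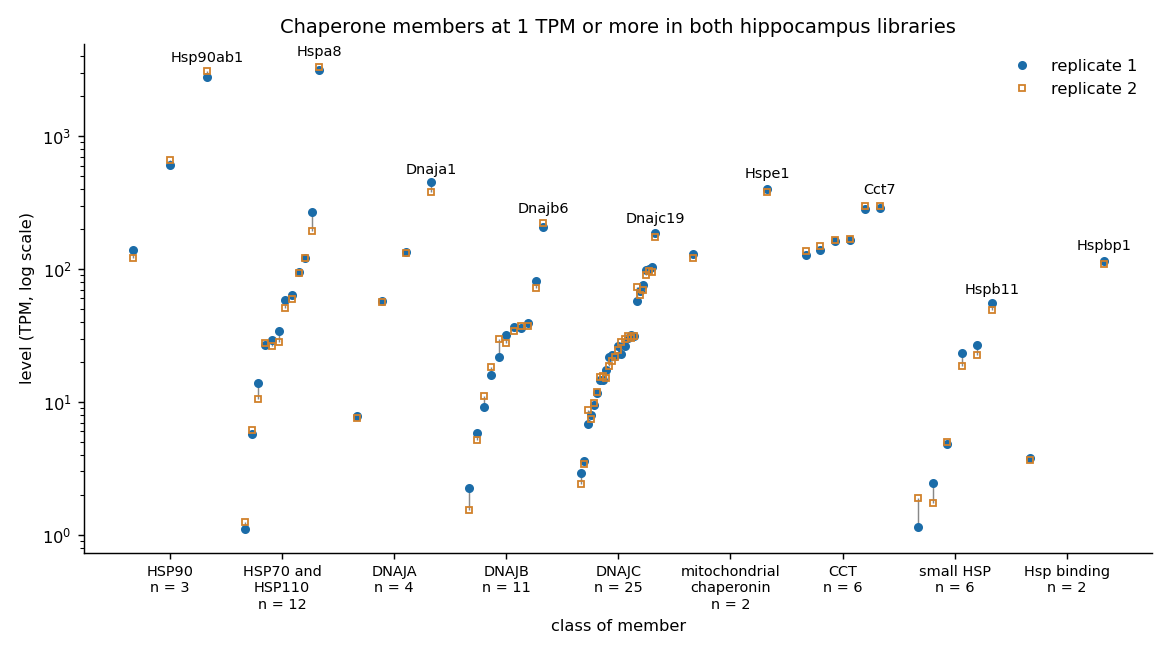
Level of each of the 71 members that reached 1 TPM in both libraries (TPM, log axis), by class of member, with filled circles for replicate 1, open squares for replicate 2 and a grey line joining the pair. The highest member of each class is named; Hspa8 and Hsp90ab1 stand at means of 3222 and 2919 TPM and the libraries nearly coincide for most members.

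Among the HSP90 genes the constitutive cytosolic member was the higher one. Hsp90ab1 (chr17:45567775-45573271, minus strand, mm10) was at 2755 TPM in replicate 1 and 3084 TPM in replicate 2. Hsp90aa1 (chr12:110690605-110702728, minus strand), its heat-inducible partner, was at 609 and 662 TPM. The ranges do not overlap, with Hsp90ab1 4.52 and 4.66 times the level of Hsp90aa1, and Hsp90aa1 was 18.1% and 17.7% of the pair (17.9% ± 0.3, SD, n = 2). No treatment is given in the labels of either library. Hsp90b1, the HSP90 of the endoplasmic reticulum, was at 138 and 120 TPM.

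Among the HSP70 genes the same order was far steeper. Hspa8 (chr9:40800984-40810087, plus strand), the constitutive Hsc70, was at 3145 and 3299 TPM. Hspa1a (chr17:34969190-34972156, minus strand), a classical inducible Hsp70 gene, was at 5.74 and 6.14 TPM, and its neighbour Hspa1b (chr17:34956436-34959238, minus strand) was at 1.03 and 0.72 TPM. Hspa8 exceeded their sum 465-fold and 481-fold, so the inducible pair made up 0.215% and 0.208% of the 3 genes (0.211% ± 0.00513, SD, n = 2). In expected counts that share was 0.303% in each library. Reads of the inducible genes were found in both libraries, with 493 and 539 reads for Hspa1a and 83.0 and 59.1 for Hspa1b.

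Few bases tell Hspa1a and Hspa1b apart within their open reading frames, and the remainder of each gene's transcript was not compared. The longest open reading frames of these genes, of 641 and 642 codons, are 99.4% identical over 1926 aligned columns. They hold 8 substitutions and 3 gap columns, and the longest identical run is 638 bases. The posterior SD deposited for the read assignment was 1.79% and 1.36% of the count for Hspa1a but 9.61% and 10.9% for Hspa1b. Hspa1l, the testis-enriched neighbour in this cluster, is 82.8% identical to Hspa1a and was at 0.67 and 0.48 TPM. Its posterior SD was 14.1% and 17.9% of its count, and it shares 1778 exon bases with an antisense gene. The pair is therefore given as a sum. Hspa8, at 73.9% identity to Hspa1a and a longest shared run of 22 bases, had a posterior SD of 0.0338% and 0.0356% of its count.

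Order was opposite in the HSP110 branch, whose proteins exchange the nucleotide of HSP70. The inducible Hsph1 (chr5:149614287-149636376, minus strand) was at 121 and 122 TPM. The constitutive Hspa4 (chr11:53259814-53300457, minus strand) was at 26.9 and 27.9 TPM. Hsph1 therefore took 81.8% and 81.3% of the pair (81.6% ± 0.357, SD, n = 2), and the gene classed as inducible was the higher of the pair in each library. Hspa4l, of the same branch, was at 58.0 and 50.6 TPM.

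**Figure D2:**
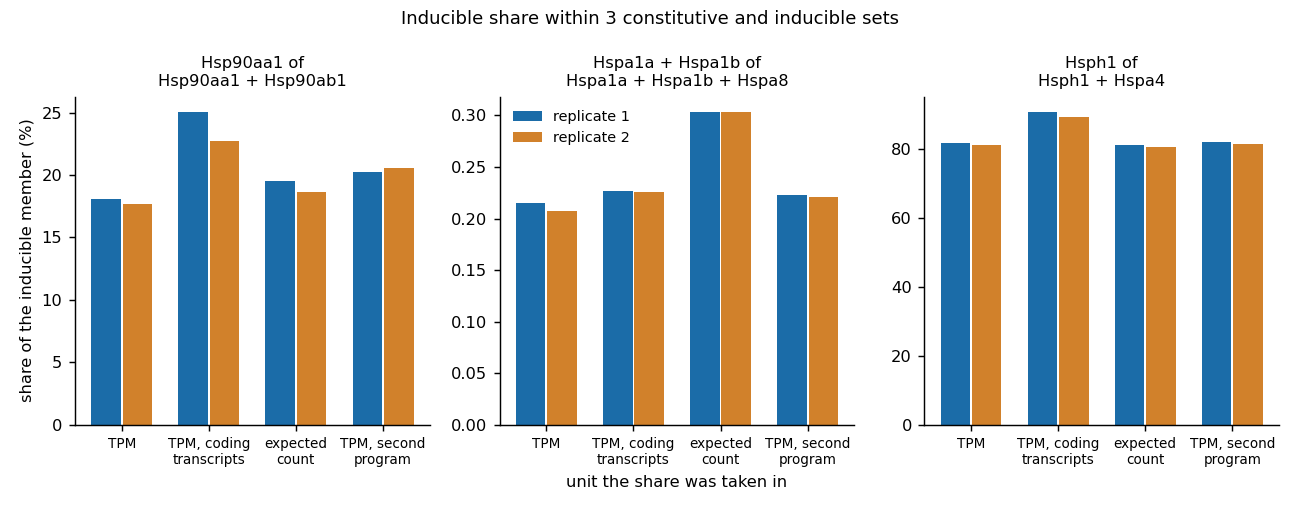
Share of the inducible member or members within each of 3 sets (percent, bars from 0), per library and in 4 units, with replicate 1 in blue and replicate 2 in orange and a separate vertical scale in each panel. The share is near 18% for Hsp90aa1, near 0.2% for Hspa1a with Hspa1b and above 80% for Hsph1, and the order within each set is kept in the 4 units.

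Over the lists, the 6 genes classed as heat-inducible (Hspa1a, Hspa1b, Hsp90aa1, Hsph1, Dnajb1 and Hspb1) had a median of 29.3 TPM in replicate 1 and 25.2 in replicate 2. The 6 constitutive cytosolic genes (Hspa8, Hsp90ab1, Hspa4, Dnaja2, Dnajc5 and Dnajc7) had medians of 116 and 111 TPM. The lists overlapped widely, since the inducible list ran from 0.875 TPM for Hspa1b to 636 TPM for Hsp90aa1 and the constitutive list from 27.4 TPM for Hspa4 to 3222 TPM for Hspa8 (means of the libraries). Adding Dnaja1, Dnajb4, Hspd1 and Hspe1, which are also heat-responsive, gave inducible medians of 78.7 and 77.4 TPM. Dnajb1, the J-protein partner of inducible HSP70, was at 31.9 and 27.9 TPM, and Dnaja1, a farnesylated cytosolic J-protein, was at 449 and 382 TPM.

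Heat shock factor 1 binds the heat shock element, an array of alternating GAA and TTC units, so the promoter windows of the members were searched for it. The windows run from 250 bases before to 50 bases after a start site, from RefSeq on GRCm38.p6, the assembly also called mm10, and 67 of the 82 members had one. The motif was GAANNTTCNNGAA or its reverse complement TTCNNGAANNTTC, so both strands were covered, and overlapping matches were kept. It was found in 4 members (5.97% of 67): Hspd1, Hspe1, Hsph1 and Dnajb6. Over all 27025 genes with a window, 179 (0.662%) held it. Hspd1 and Hspe1 are divergent neighbours and share 1 array, so the 4 members hold 3 arrays. They are printed because they are the members' exact arrays, each on the strand of the gene with the matched bases in capitals. Each stretch overlaps an exon of some M21 transcript.
Hspe1, chr1:55088053-55088082, plus strand: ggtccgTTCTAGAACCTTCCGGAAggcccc
Dnajb6, chr5:29735844-29735872, plus strand: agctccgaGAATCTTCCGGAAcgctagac
Hsph1, chr5:149636280-149636308, minus strand: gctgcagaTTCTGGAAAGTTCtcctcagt
The Hspe1 array has overlapping matches and runs from base -89 to -72 relative to the RefSeq start, the Dnajb6 match from -46 to -34, and the Hsph1 match from 16 to 28 after the more downstream of its start sites.

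With 1 mismatch allowed among the 9 fixed bases, 17 of 67 members (25.4%) held the element, beside 8.15% of all genes. These included 4 of the 5 heat-inducible genes with a window (Hspa1a, Hspa1b, Hspb1 and Hsph1, not Dnajb1) and 0 of the 3 constitutive cytosolic genes with one (Hspa4, Dnaja2 and Dnajc7). Hspa8, Hsp90ab1, Dnajc5 and the inducible Hsp90aa1 had no window and were not searched. The stretch before Hspa1a is shown with its array of 1-mismatch matches, from base -114 to -97, in capitals. Hspa1b differs from it at 3 of 250 bases, none of them inside the array.
Hspa1a, chr17:34972157-34972406, minus strand: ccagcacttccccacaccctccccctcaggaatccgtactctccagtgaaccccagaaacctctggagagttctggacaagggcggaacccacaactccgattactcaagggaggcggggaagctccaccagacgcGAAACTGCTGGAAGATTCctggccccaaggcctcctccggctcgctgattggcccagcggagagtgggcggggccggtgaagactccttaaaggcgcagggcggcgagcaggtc
A match is a description of these letters, and the members that hold one with at most 1 mismatch ranged from Cct8l1 at 0.02 TPM to Dnaja1 at 415 TPM.

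The other HSP70-like genes lay between these extremes. Hspa2, known for its role in sperm formation, was at 95.02 and 92.8 TPM, so it stood above Hspa1a and Hspa1b in both libraries. Hspa12a, a divergent HSP70-like gene, was at 33.99 and 28.3 TPM and Hspa12b at 1.10 and 1.25. Hspa14, of the ribosome-associated complex, was at 29.2 and 26.4 TPM, and Hspa13, a microsomal HSP70-like gene, at 14.0 and 10.6. Hspbp1, an exchange factor of HSP70, was at 115 and 109 TPM, and Hspbap1 at 3.78 and 3.67.

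Of the endoplasmic reticulum chaperones, which the unfolded protein response can raise, all 6 listed were expressed. Hspa5, the BiP protein that holds nascent chains in the lumen, was the highest at 268 TPM in replicate 1 and 195 TPM in replicate 2. Its J-domain cofactors were lower: Dnajb11 was at 80.6 and 72.3 TPM, Dnajb9 at 36.1 and 37.1, Dnajc10 at 22.7 and 20.3, and Dnajc3 at 21.8 and 18.5. Apart from Dnajb9, each was higher in replicate 1.

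The mitochondrial members were all well expressed. Hspe1, the lid of the mitochondrial chaperonin, was at 396 and 380 TPM. Hspd1, its barrel, was at 130 and 121 TPM, so that the lid transcript stood above the barrel transcript with no overlap between the libraries. The genes share 112 exon bases in opposite directions, and the strand setting of the counting is not given in the sources used here. Dnajc19, of the protein import motor, was at 185 and 174 TPM, and Dnajc15, a related inner membrane protein, at 104 and 94.2. Hspa9, the mitochondrial HSP70 that drives import, was at 63.7 and 59.7 TPM, and its J-protein Dnaja3 at 57.1 and 56.6.

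All 5 J-proteins listed for synaptic or neuronal roles were expressed, with medians of 98.5 and 89.7 TPM. Dnajb6, which holds back aggregation of polyglutamine proteins, led with 207 and 220 TPM. Dnajc6 (auxilin, the clathrin-uncoating partner of Hspa8) was at 99.2 and 97.4 TPM, and Dnajc5 (cysteine string protein of the synaptic vesicle) at 98.5 and 89.7. Dnajb2, a neuronal J-protein that delivers clients to the proteasome, was at 39.3 and 37.4 TPM, and Dnajc13, an endosomal J-protein, at 8.03 and 7.48. Over the whole J-domain classes, 4 of 4 Dnaja, 11 of 13 Dnajb and 25 of 28 Dnajc genes reached 1 TPM in both libraries. Of the further J-proteins, Dnaja2, a cytosolic partner of Hspa8, was at 133 and 133 TPM, Dnajc8, a splicing-associated J-protein, at 75.9 and 69.9, and Dnajc30, a mitochondrial one, at 57.3 and 73.1. Dnajc7, which also binds HSP90, was at 68.6 and 63.8 TPM and Dnajb4 at 36.3 and 34.1. Dnaja4 was the lowest Dnaja gene at 7.88 and 7.63 TPM, and Dnajc25 the lowest Dnajc gene above 1 TPM, at 2.93 and 2.40.

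The 6 expressed CCT members lay between 127 and 299 TPM. Cct7 was at 290 and 299 TPM and Cct5 at 283 and 298 TPM, the upper pair, whose ranges overlap. Cct4 was at 164 and 167 TPM and Cct3 at 163 and 165, again overlapping. Cct2 was at 140 and 149 TPM, below Cct3 with no overlap, and Cct8 was lowest at 127 and 136, with no overlap with Cct2. These separations rest on the first program: by the second, Cct2 was at 114 and 107 TPM, Cct3 at 118 and 110 and Cct8 at 109.6 and 113, which overlap, and Cct2 was lowest in replicate 2. Cct6a, at 201 and 208 TPM, and Tcp1, at 152 and 163 TPM, fell inside the range of the 6 members. The highest subunit was 2.29 and 2.20 times the lowest (2.24 ± 0.0652, SD, n = 2). The further CCT-named genes Cct6b and Cct8l1 were nearly silent, at 0.11 and 0.06 TPM and at 0.04 and 0 TPM.

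**Figure D3:**
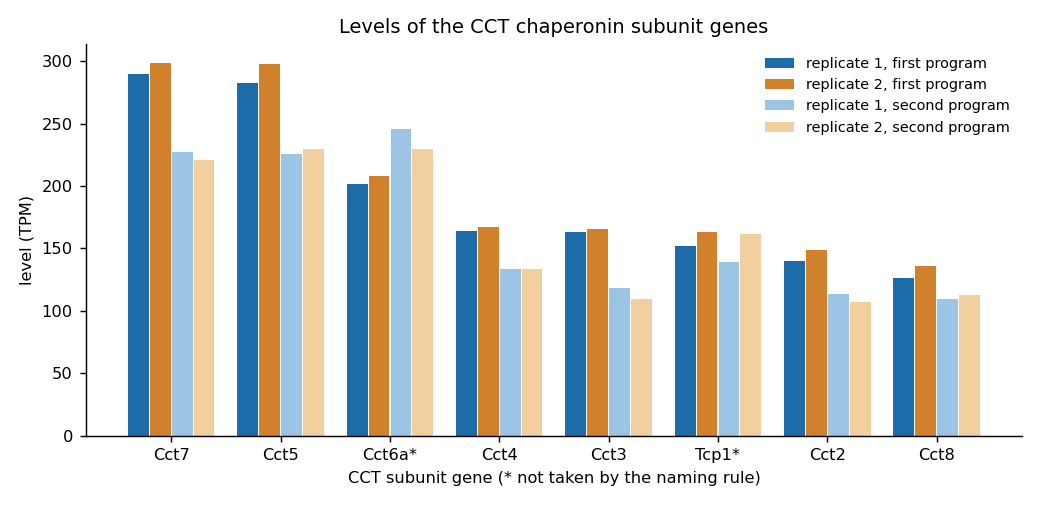
Level of each CCT subunit gene (TPM, bars from 0) in replicates 1 and 2 by the first program (dark bars) and the second program (pale bars); asterisks mark Cct6a and Tcp1, which the naming rule does not take. Cct7 and Cct5 lead by the first program and Cct6a by the second.

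Small heat shock proteins, which hold unfolding proteins without ATP, were modest. Hspb11, named in this family but part of intraflagellar transport, was highest at 55.7 and 48.8 TPM. Heat-inducible Hspb1 was at 26.8 and 22.5 TPM and Hspb8, which works with Bag3, at 23.3 and 18.8. The 4 genes listed for muscle were low: Hspb6 was at 4.86 and 5 TPM, Hspb2 at 2.46 and 1.75, Hspb3 at 1.15 and 1.91, and Hspb7 at 0.05 and 0. Hspb1 and Hspb8 were not on that list. Hspb2 shares 252 exon bases with Cryab, itself at 259 and 245 TPM on the opposite strand. Of 9 members on a list of testis-enriched genes, 1 reached 1 TPM, Dnajb3, at 5.87 and 5.20 TPM. That list did not hold Hspa2, given above for its role in sperm formation, at 95.02 and 92.8 TPM.

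The partner genes of the same pathways were measured as well. Heat shock factor 1, Hsf1, was at 17.2 and 18.4 TPM, Hsf2 at 19.4 and 14.0, and Hsf4 at 2.13 and 2.26. All 15 HSP90 cochaperones listed were at 1 TPM or more, with medians of 100.5 and 94.4 TPM, from Fkbp5, an immunophilin at 3.66 TPM, to Stub1, the ubiquitin ligase of chaperone clients, at 304 TPM. All 11 HSP70 cofactors were expressed (medians 35.6 and 35.6 TPM), St13 being highest at 208 TPM and Bag3, a stress-inducible nucleotide exchange factor, lowest at 3.96. The 9 genes of prefoldin and the CCT pathway had medians of 90.7 and 86.3 TPM, led by Pfdn5 at 1100 TPM. None of these partner genes passed 2-fold between the libraries, beside 2.42% of all genes with a mean of at least 50 reads.

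No member passed a 2-fold difference between the libraries. Scaled expected counts were compared as a log2 ratio of replicate 1 over replicate 2 for genes with a mean of at least 50 reads. An absolute log2 ratio of at least 1 was counted as called. None of 70 members tested was called, beside 340 of 14078 genes (2.42%), of which 279 were higher in replicate 1. The members' count is near that background. The median absolute log2 ratio was 0.11 over the members and 0.16 over all genes tested. Past 0.5 there were 2 of 70 members (2.86%), beside 10.5% of all genes. These comparisons were not matched for read depth. The expressed members had the higher median level (31.1 TPM, beside 13.2 TPM for expressed coding genes), and its part in the narrower ratios was not tested. The median coefficient of variation of TPM over the 71 expressed members was 5.12%.

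The widest member was Hspa12b, a divergent HSP70-like gene of endothelium, with 72.0 and 127 reads and a log2 ratio of -0.81 (95% interval -1.25 to -0.38). In TPM its levels were 1.10 and 1.25, a log2 ratio of -0.18, and by the second program 1.57 and 1.59. The unscaled counts of the second program were 117 and 172, again lower in replicate 1. All intervals here are exact (Clopper-Pearson) and cover counting error only. Of the endothelial markers, 4 of 5 were lower in replicate 1 (median log2 ratio -0.16, summed level 215 against 269 TPM), and their part in the Hspa12b value was not tested. On the lower side Dnajb5 followed at -0.46, Dnajc30 at -0.38, Dnajc2 at -0.26 and Dnaja2 at -0.19. On the higher side were Dnajc25 at 0.53 (0.06 to 1.01), Hspa1b at 0.49 (0.00 to 1.01), Hspa5 at 0.45 (0.42 to 0.49), Dnajb13 at 0.44 and Dnajc18 at 0.41. In TPM Dnajc18 turned direction, at 26.5 and 29.95, and Dnaja2 was nearly level, at 133.2 and 132.6. Dnajc25 shares 348 exon bases with Gm20503 on the same strand, Dnajc30 shares 436 with Bud23, and Dnajb13 shares 305 with Ucp2. The deposited posterior SD was 3.19% and 4.14% of the count for Dnajc25. It was 0.623% and 0.576% for Dnajc30, and 0.538% and 0.958% for Dnajb13. The part of these overlaps in the ratios was not tested.

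Hspa5 had 16440 reads in replicate 1 and 12062 in replicate 2. Of the endoplasmic reticulum list 5 of 6 were higher in replicate 1, with a median log2 ratio of 0.15. These were Hspa5 at 0.45, Dnajc3 at 0.21, Hsp90b1 at 0.17, Dnajb11 at 0.12 and Dnajc10 at 0.11, while Dnajb9 was at -0.06. By the same scaled counts 6 of 6 CCT members were lower in replicate 1, with a median of -0.10 and a range from -0.13 for Cct8 to -0.00 for Cct3. By the TPM of the second program the CCT direction held for 3 of the 6 members. Cct2, Cct3 and Cct7 were higher in replicate 1 there (114 against 107, 118 against 110, and 227 against 221). In unscaled counts of the second program these 3 were lower in replicate 1 (9137 against 9621, 8077 against 8104, and 20975 against 21553). Their direction by that program thus depended on the unit. Over all genes tested, 49.1% were higher in replicate 1. Several marker lists moved with these differences. Choroid plexus markers were higher in replicate 1 in 7 of 7 and astrocyte markers in 4 of 5 (median 0.17). Neuron markers were lower in 5 of 5, microglia markers in 5 of 5 (median -0.11) and mural and meningeal markers in 7 of 7 (median -0.41). Their part in the chaperone values was not tested.

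**Figure D4:**
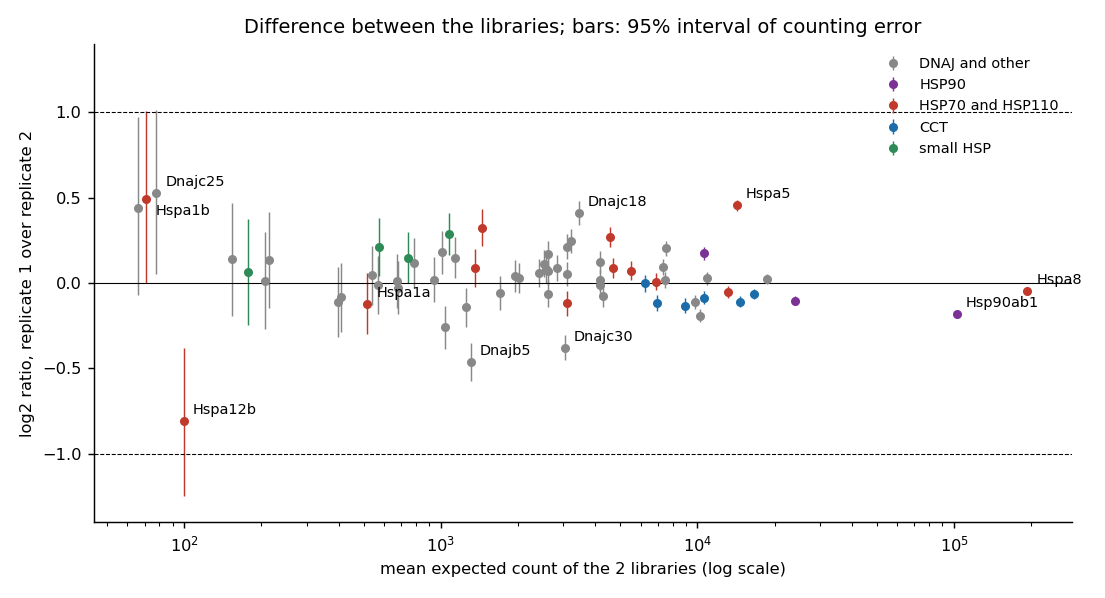
Log2 ratio of replicate 1 over replicate 2 against the mean expected count (log axis) for the 70 members with a mean of at least 50 reads, coloured by class, with bars for the 95% interval of counting error and dashed lines at the 2-fold limits. All points lie between the dashed lines; Hspa12b is lowest at -0.81, and Hspa5 is at 0.45.

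A gene's TPM does not say which of its transcripts it came from, and for some chaperones much of it was assigned to transcripts annotated as non-coding. Of Hsp90ab1, protein-coding transcripts held 32.8% and 32.3% of the TPM, but 67.8% and 66.9% of the expected counts. The full-length Hsp90ab1-201 (2520 bases, 724 codons) took 32.6% and 32.0% of the TPM. Hsp90ab1-206, a 703-base transcript annotated for nonsense-mediated decay, took 43.1% and 43.2%, and Hsp90ab1-204, a 685-base retained-intron transcript, 23.5% and 23.9%. The short transcripts end 2888 and 2670 bases before the 3' end of the gene. Because TPM divides by length, a short transcript weighs more in TPM than in reads.

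Hsp90aa1 had the same feature, with 49.5% and 44.3% of its TPM on coding transcripts and the 924-base retained-intron transcript Hsp90aa1-206 ahead at 37.1% and 38.8%. On coding transcripts alone Hsp90aa1 was 25.04% and 22.8% of the HSP90 pair, and the order of the pair was kept. Hspa4 had 45.7% and 52.5% of its TPM on the coding transcript, which put Hsph1 at 90.7% and 89.2% of the HSP110 pair. In Dnajc15 the coding transcript Dnajc15-202 held 7.88% and 8.13% of the TPM and 57.6% of the reads in replicate 1. Cct3 had 61.6% and 59.0% on coding transcripts, and with them alone the CCT spread was 2.81 and 3.03, from Cct5 to Cct3. In all, 6 members had a non-coding leading transcript in both libraries (Hsp90aa1, Hsp90ab1, Dnajc1, Dnajc2, Dnajc15 and Dnajc24), of 59 members with several transcripts and at least 5 TPM. The share of all coding genes tested was 9.16%, so the members' count is near the background.

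**Figure D5:**
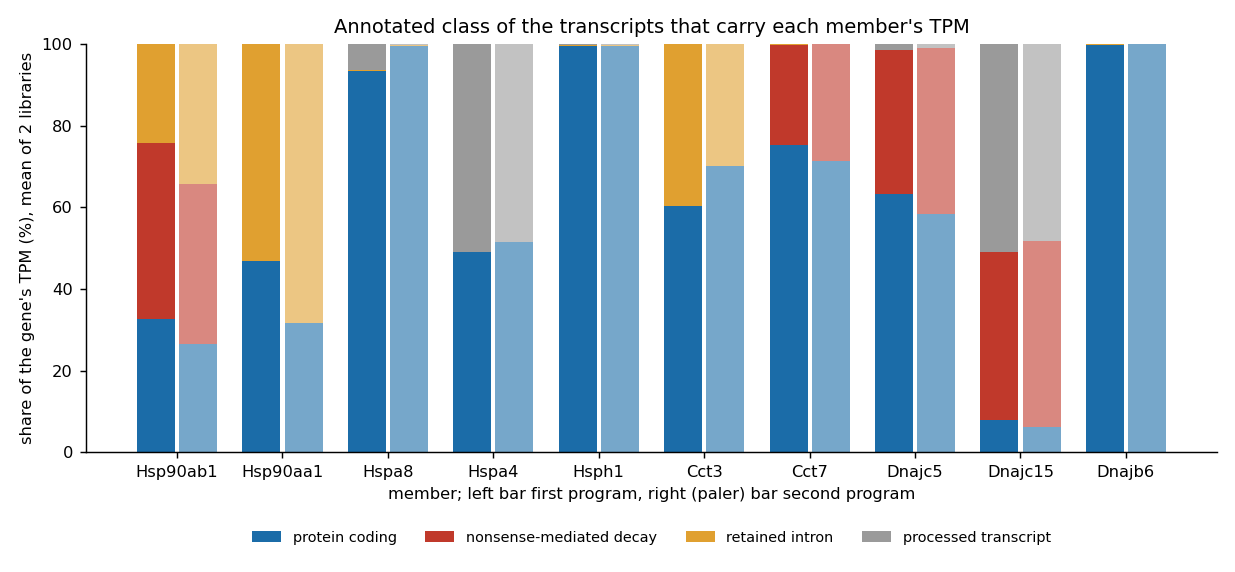
Share of the TPM of 10 members (percent, mean of the libraries) by annotated class of transcript, for the first program (left, full colour) and the second program (right, paler). Coding transcripts hold about a full bar in Hsph1 and Dnajb6 and the smaller share in Hsp90ab1 and Dnajc15 by both programs.

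The annotated coding length differed by transcript in several J-proteins, and the proteins themselves were not measured. For Dnajb6, the 242-codon transcript Dnajb6-203 held 95.9% and 96.9% of the TPM and the 365-codon Dnajb6-201 held 3.18% and 2.42%. For Dnajb2, the 277-codon Dnajb2-207 held 49.2% and 45.0% of the TPM and the 324-codon Dnajb2-210 held 21.1% and 22.4%. In expected counts their shares were 51.2% and 46.7%, and 37.6% and 39.7%. Dnajc6 had its highest share of TPM on Dnajc6-207, an 872-base transcript with 194 codons, at 42.5% and 52.4%. The 900-codon Dnajc6-204 and Dnajc6-203 had 19.8% and 15.9%, and 13.5% and 12.8%. These are shares of TPM, in which so short a transcript weighs more than in reads, so they do not rank the protein forms.

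The submitters quantified the same libraries with 2 programs. The second program was lower for most genes, with a median log2 ratio to the first of -0.25 over all genes and -0.28 over the members. None of 71 members was over 2-fold apart in both libraries, beside 402 of 13780 genes (2.92%), so the members' count is near the background. The widest were Dnajc7 at -0.53 and Hspa12b at 0.43. Dnajc7 shares 154 exon bases with Cnp, a myelin gene with 25310 and 29600 reads, and 287 with Nkiras2, at 704 and 756 reads. Coding transcripts of Dnajc7 were at 50.1 and 41.7 TPM by the first program and 44.0 and 35.0 by the second. They held 73.0% and 65.3% of its TPM by the first program and 88.2% and 83.2% by the second. The part of the overlaps in the Dnajc7 value was not tested. The share of Hsp90aa1 in its pair was 20.2% and 20.6% by the second program, that of Hspa1a with Hspa1b 0.223% and 0.221%, and that of Hsph1 82.0% and 81.4%.

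The programs differed more on transcripts. The leading transcript differed in both libraries for 3 of 59 members (Hspa8, Dnajc5 and Dnajc12), beside 5.21% of the 8477 genes tested, a share close to that background. For Hspa8 the 627-codon Hspa8-202 led by the first program, at 48.0% and 51.9%, with the 646-codon Hspa8-201 at 46.8% and 40.1%. The second program put Hspa8-201 ahead, at 67.6% and 64.7%. For Dnajc5 the first program gave the coding Dnajc5-203 43.7% and 44.7%, and the second led with Dnajc5-204, annotated for nonsense-mediated decay, at 38.0% and 43.4%. Hsph1 kept its leading transcript, the 858-codon Hsph1-211, but its share fell from 81.5% and 85.4% by the first program to 56.1% and 50.8% by the second.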

How the data were processed

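Polyadenylated RNA was measured in 2 libraries of 1 group. Per the file headers, the authors deposited tables per gene and per transcript with expected counts, TPM and FPKM, laid out as RSEM writes them, and tables per transcript with estimated counts and TPM, laid out as kallisto writes them. The deposited posterior SD of the count was used for near-identical genes. The text deposited beside the tables names mm10 and M21; the programs' names and versions, and any use of strand, are not stated there or in the labels. Rows naming no mouse gene (26345 per table) held 2.31e-05% and 1.64e-05% of the reads and were left out.

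Members were joined by gene identifier, and values of the second program were added up over each gene's transcripts. Expected counts were rounded to whole numbers and scaled by TMM in edgeR 4.0.16 (R 4.3.3), with a prior count of 0.5. Other steps used Python 3.11.15, numpy 2.4.6, pandas 2.3.3, scipy 1.17.1, biopython 1.88 and matplotlib 3.10.9. Coordinates are 1-based. A 1-to-1 comparison of libraries has no replicate check, so intervals cover counting error only, and without molecular identifiers, reads are not independent molecules. The call rule was tested on simulated data. Open reading frames were aligned globally.

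Named genes are the members of the inducible, constitutive, endoplasmic reticulum, mitochondrial, synaptic and CCT lists, the 10 highest members, the 5 widest ratios each way, members whose leading transcript differs between programs, and further members given as values. The members and lists were chosen with earlier results of these data known. Alternatives tried were other scalings, minimums, folds, units, motifs, the second program, leaving out a library, TPM without mitochondrially encoded genes and a broad inducible list. Restriction of the shares and the CCT spread to coding transcripts and removal of the overall shift between programs were chosen after seeing the data.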

Additional observations from a re-analysis of the deposited data

How the results depend on the processing

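The members past the limit between the libraries stayed at 0 with relative log expression factors, library totals and a prior count of 2. They also stayed at 0 with a mean of 10 reads and by the second program. Over all genes tested, these settings called 2.32% to 5.27%. With no count minimum 5 of 79 members were called, beside 25.7% of 26855 genes, each of the 5 with at most 4 reads in a library. At 1.5-fold 1 of 70 (Hspa12b) was called, beside 7.74% of 14078 genes. The set's share of TPM, 1.16%, was 0.964% by the second program, 1.3% without mitochondrially encoded genes and 1.51% in expected counts. The Hsp90aa1 share of 17.9% was 20.4% by the second program, 19.1% in expected counts and 23.9% on coding transcripts. The share of Hspa1a with Hspa1b, 0.211%, was 0.222%, 0.303% and 0.226% under the same changes. The Hsph1 share of 81.6% was 80.9% in expected counts and 90% on coding transcripts. The heat-inducible median of 27.2 TPM was 21.3 by the second program, 30.4 without mitochondrially encoded genes and 78.1 with the broad list. The constitutive median of 113 TPM was 109 and 127 under the first 2 of these. The CCT spread of 2.24 was 2.92 on coding transcripts of the 6 members. The heat shock element count of 4 was 19 with 2 units (28.4% of 67, beside 17.0% of all 27025 genes with a window). It was 17 with 1 mismatch (25.4%, beside 8.15%). Leaving out a library gave ranges of 1.14% to 1.18%, 17.7% to 18.1%, 0.208% to 0.215%, 81.3% to 81.8%, 25.2 to 29.3 TPM, 111 to 116 TPM and 2.2 to 2.29. These shifts follow from the change of unit, list, motif or transcript set; for the second program the cause was not tested. The order within the 3 inducible and constitutive sets was kept in the alternatives run; the order of the CCT subunits was not. No paired analysis was possible because there is 1 group. At 83.0 and 59.1 reads, counting error limits Hspa1b and members below it.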

Other observations

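For 4 of 69 members with at least 50 reads and 1 TPM (5.80%, beside 4.64% of 13142 genes), the log2 ratio between the libraries differed by at least 0.3 between TPM and scaled expected counts. For Dnajc18, a J-protein of the endoplasmic reticulum membrane, the ratio was -0.18 in TPM and 0.41 in counts. In replicate 2, 31.5% of its TPM was assigned to Dnajc18-202, a 569-base transcript annotated for nonsense-mediated decay, and in replicate 1 that transcript was at 0. For Dnajb12, also of that membrane, the ratio was -0.21 in TPM and 0.15 in counts, and for its relative Dnajb14 -0.28 and 0.06. For Hspa12b it was -0.18 and -0.81. The direction between the libraries thus depended on the unit for Dnajc18, Dnajb12 and Dnajb14. The members and the limit of 0.3 were chosen after the values were seen.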
